A study of Homo sapiens with 4 samples.

Results

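YAP1 and WWTR1 (which encodes TAZ) are transcriptional coactivators that have no DNA-binding domain of their own and work through the TEAD transcription factors. The genes described here are 10 named members of that system: the coactivators YAP1 and WWTR1, the factors TEAD1 and TEAD4, the target genes CYR61 (now CCN1), CTGF (now CCN2), ANKRD1, AJUBA and AMOTL2, and LATS2, which is both a kinase of the pathway and a target. They were chosen by gene name as known pathway genes, with earlier results of these data already known, as were the wider lists below. Shares of all genes given beside their counts are thus a description and not an independent test. All 10 members were found, each as 1 row, among 57820 genes in the deposited table. The cells were of the human line A549, from a lung adenocarcinoma, in which the oxidative stress transcription factor NRF2 is active, per the series title. The knockdown group, CEBPB_KD, holds 1 library from cells given CEBPB siRNA-1 and 1 from cells given CEBPB siRNA-2, and the control group holds 2 libraries from cells given control siRNA. Fresh medium was given 24 h after transfection and RNA was taken 24 h later, so the knockdown was transient. CEBPB encodes a C/EBP family transcription factor, and the study compared transcripts with and without its knockdown. The knockdown libraries differ in siRNA as well as in transfection, while the labels do not say whether the controls came from separate cultures, so the p-values measure only the spread between these libraries, which may be technical.

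In the Hippo pathway, the kinases STK3 and STK4 activate LATS1 and LATS2, which phosphorylate YAP1 and WWTR1 and hold them in the cytoplasm. When the kinases are off, the coactivators enter the nucleus, bind TEAD factors and switch on genes such as CYR61, CTGF and ANKRD1. In epithelial cells the pathway responds to cell density, cell shape and tension, and in lung cancer cells YAP1 and WWTR1 are known for promoting growth and migration. Most of that control acts on the proteins, which RNA libraries do not show.

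The promoter windows of CTGF, ANKRD1 and AJUBA are shown because these targets stood well above the controls after knockdown. Each runs from 250 bases before to 50 bases after a gene start and was taken from RefSeq (GRCh38.p14), whereas the study's own build is hg19. The motif searched for TEAD factors was GGAATG, on either strand, and its matches are in capitals. CTGF has 3 matches, which start 169, 104 and 95 bases before the gene start, and ANKRD1 has 2, at 220 and 128 bases before it. AJUBA has 2 windows, and only the one with a match is shown. The first window has 0 matches, and the second, from the more downstream start, has 1 match at 59 bases before the start.
CTGF promoter, chr6:131951323-131951622, minus strand: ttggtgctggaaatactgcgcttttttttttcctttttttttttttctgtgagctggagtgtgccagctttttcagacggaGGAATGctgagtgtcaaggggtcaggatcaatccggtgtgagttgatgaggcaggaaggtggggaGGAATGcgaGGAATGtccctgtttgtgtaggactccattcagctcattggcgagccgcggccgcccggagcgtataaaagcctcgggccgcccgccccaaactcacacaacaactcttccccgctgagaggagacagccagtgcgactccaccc
ANKRD1 promoter, chr10:90921038-90921337, minus strand: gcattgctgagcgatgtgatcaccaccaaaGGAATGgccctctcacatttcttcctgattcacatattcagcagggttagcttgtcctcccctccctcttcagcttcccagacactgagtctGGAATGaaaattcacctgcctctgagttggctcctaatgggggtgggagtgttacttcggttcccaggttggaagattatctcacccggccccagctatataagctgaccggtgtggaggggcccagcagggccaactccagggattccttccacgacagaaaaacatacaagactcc
AJUBA promoter, second start, chr14:22976793-22977092, minus strand: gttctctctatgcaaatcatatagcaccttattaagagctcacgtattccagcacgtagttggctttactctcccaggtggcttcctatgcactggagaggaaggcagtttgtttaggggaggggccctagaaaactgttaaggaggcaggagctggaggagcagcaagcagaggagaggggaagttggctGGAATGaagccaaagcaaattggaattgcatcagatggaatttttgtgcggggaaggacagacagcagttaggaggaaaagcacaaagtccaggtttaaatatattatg

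Windows were found for 7 of the 10 genes, 10 windows in all, with none for TEAD1, TEAD4 and CYR61. GGAATG was present in 6 of these 10 windows, and in 14.0% of 35116 RefSeq windows of the same length. At least 2 matches, as in ANKRD1, were in 1.37% of all windows, and at least 3, as in CTGF, in 0.128%. The other matches were 1 in YAP1, 1 in the second window of AMOTL2 and 1 in LATS2, so it was also present in genes that neither test called. Both windows of WWTR1, a gene also above both controls, had 0 matches, as had the first windows of AJUBA and AMOTL2. A C/EBP-type motif, TTGCNNAA, was in 0 of the 10 windows and in 10.5% of all windows. An AP-1 motif, TGANTCA, was in the ANKRD1 window alone and in 7.71% of all windows. Letters that match in so short a window are a description and do not show binding. Since the members were chosen as known pathway genes, the shares of all windows are not an independent test either.

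Across the series, the libraries summed to between 494066 and 528606 FPKM (fragments per kilobase, a level corrected for transcript length and library size) and listed 13752 to 14325 genes at 1 FPKM or more. The authors' mean normalized counts summed to 8341080, the closest figure to a depth that the table offers. The target, CEBPB, was at 12.9 and 10.97 FPKM with siRNA-1 and siRNA-2, against 78.7 and 80.9 FPKM in the controls (limma adjusted p = 0.0167). Epithelial markers were present, with 6 of 6 averaging at least 1 FPKM, and their sum was 3024 and 4003 FPKM with siRNA-1 and siRNA-2, against 4270 and 5835 FPKM in the controls. KRT8 and KRT18 carried that lower sum, and KRT18 was called lower in the authors' deposited table (log2 change -1.21, adjusted p = 0.0317). KRT7 and KRT19 went the other way, KRT7 being at 1200.0 and 1162 FPKM with siRNA-1 and siRNA-2, against 671 and 777 FPKM in the controls. The alveolar type II markers NKX2-1, SFTPA1 and SFTPB were listed at 0 in every library. The 7 listed for that cell type summed to 27.1 and 23.2 FPKM with siRNA-1 and siRNA-2, against 16.6 and 11.9 FPKM in the controls, nearly all of it ABCA3, a lipid transporter at 24.8 and 21.99 FPKM, against 14.6 and 11.2 FPKM in the controls (adjusted p = 0.0473 in the authors' deposited table). Among other cell types, the 4 endothelial markers found and 4 of 5 leukocyte markers were listed at 0 throughout. The remaining leukocyte marker, CD68, was at 16.8 and 4.69 FPKM with siRNA-1 and siRNA-2, against 7.09 and 9.72 FPKM in the controls. The 4 smooth muscle markers summed to 10.4 and 10.0 FPKM with siRNA-1 and siRNA-2, against 6.03 and 3.57 FPKM in the controls. Most of that sum was ACTA2, and MYH11 and DES were not higher after knockdown. Of 9 fibroblast markers only COL1A1 averaged at least 1 FPKM, and their sum was 4.83 and 2.92 FPKM in the knockdown libraries, against 0.857 and 0.773 FPKM in the controls. COL1A2 and FAP were listed at 0, whereas COL1A1 was called higher in the authors' deposited table (log2 change 1.88, adjusted p = 0.00621). THY1 was at 0.336 and 0.582 FPKM with siRNA-1 and siRNA-2, against 0.0594 and 0.0888 FPKM in the controls, and was not called there. The part of the COL1A1, ABCA3, keratin, CD68 and smooth muscle marker differences in the results below was not tested.

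After CEBPB knockdown, transcripts of 4 of the named TEAD targets, CYR61, CTGF, ANKRD1 and AJUBA, stood at a mean 2.90 to 7.82 times the controls. For each of them both siRNA libraries were above both controls. In bulk RNA, more cells with a transcript and more of it per cell cannot be told apart. The named target AMOTL2, the coactivator WWTR1 and the factor TEAD1 were also above both controls, by 1.35, 1.69 and 1.41 times. LATS2, both an inhibitory kinase and a named target, was the only member whose libraries both lay below both controls. CYR61, CTGF, ANKRD1 and AJUBA passed the threshold in the authors' deposited table. None of the 10 passed in the limma fit used here.

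In limma, fitted to log2(FPKM + 1) over 14068 genes, 0 of the 10 members had an adjusted p below 0.05, where 0.235% of all tested genes had one (0.064% higher and 0.171% lower). An unadjusted p below 0.05 was found for 6 members, all of them higher, where 12.2% of tested genes had one in either direction. In the authors' deposited table, made with DESeq2, 4 members were higher at an adjusted p below 0.05, where 2.71% of 14675 genes were, and 0 were lower, where 1.42% were. The knockdown libraries were both above both controls for 7 members and both below for 1, where 23.5% and 21% of tested genes were. Both tests use the same 4 libraries. An exact two-sided permutation test of one gene with 2 libraries against 2 cannot go below p = 0.333. The limma spread holds the difference between the siRNAs: with 3 groups, so that it does not, the same 4 members passed upward, where 3.82% of tested genes did, and 5 passed without the siRNA-2 library, where 6.18% did, WWTR1 being the other. In the 3-group fit and the fit without siRNA-2 the spread comes from the controls alone. Neither therefore measures the spread between knockdown libraries. Leaving out siRNA-1 or either control instead gave no call for a member. The median log2 change was 0.60 over the 10 members and 0.00 over all tested genes.

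**Figure D1:**
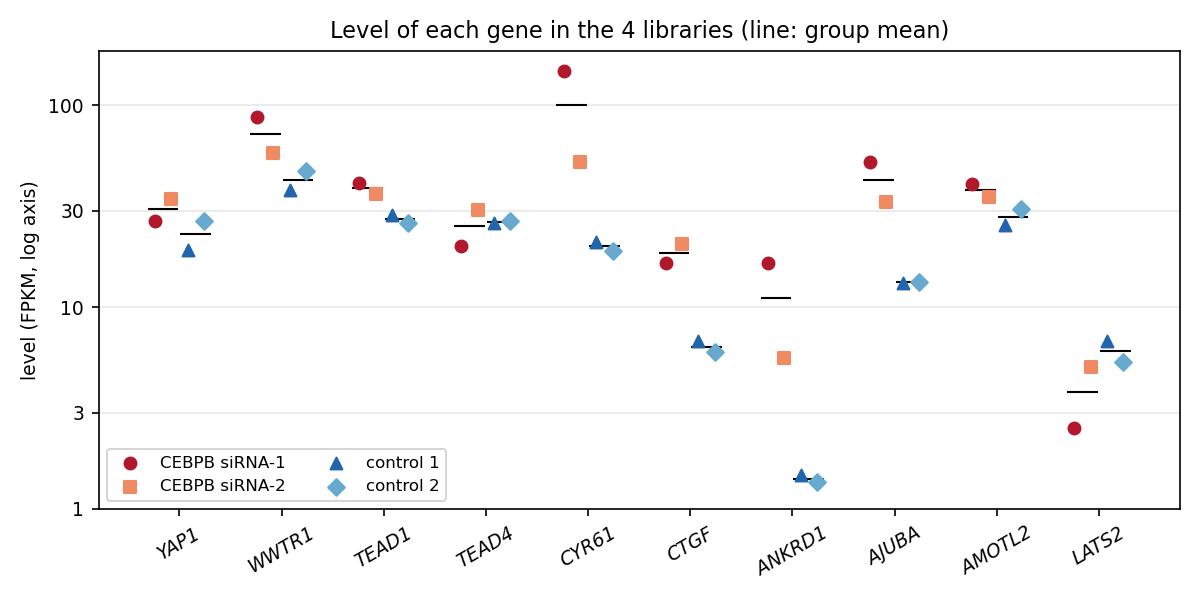
Level of each of the 10 genes in FPKM (log axis) in the 2 CEBPB siRNA libraries (red circle siRNA-1, orange square siRNA-2) and the 2 control libraries (blue), with a line at each group mean. The red and orange points of CYR61, CTGF, ANKRD1 and AJUBA lie well above the blue ones, those of YAP1 and TEAD4 overlap them, and those of LATS2 lie below.

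YAP1 was at 26.69 FPKM with siRNA-1 and 34.4 FPKM with siRNA-2, against 19.2 and 26.70 FPKM in the controls. The siRNA-1 library was thus level with the higher control, the groups overlapped, and the log2 change of 0.41 ± 0.23 (SE, n = 2 libraries per group) did not pass (limma adjusted p = 0.555). WWTR1, the paralog of YAP1, was at 87.1 and 57.6 FPKM with siRNA-1 and siRNA-2, against 38.0 and 47.4 FPKM in the controls. Its groups did not overlap, with siRNA-1 furthest out, and the log2 change was 0.73 ± 0.25 (limma adjusted p = 0.334). The authors' deposited table puts WWTR1 at 0.90 ± 0.31 (adjusted p = 0.0718), close to the threshold but not past it. WWTR1 was the more abundant coactivator in every library, with a ratio of WWTR1 to YAP1 levels of 3.26 with siRNA-1 and 1.67 with siRNA-2, against 1.98 and 1.77 in the controls. That ratio was therefore outside the controls in opposite directions for the siRNAs. The summed level of both coactivators was 114 and 92.0 FPKM with siRNA-1 and siRNA-2, against 57.2 and 74.1 FPKM in the controls.

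TEAD1, one of the 4 DNA-binding partners, was at 41.2 FPKM with siRNA-1 and 36.3 FPKM with siRNA-2, against 28.7 and 26.2 FPKM in the controls. Both knockdown libraries were higher than both controls, and the log2 change was 0.48 ± 0.17 (limma adjusted p = 0.339; adjusted p = 0.363 in the authors' deposited table). TEAD4 was at 20.1 FPKM with siRNA-1 and 30.1 FPKM with siRNA-2, against 26.2 and 26.7 FPKM in the controls. The siRNAs thus lay on either side of closely matched controls, and the log2 change was -0.10 ± 0.23 (limma adjusted p = 0.905). TEAD2 was at 9.47 FPKM with siRNA-1 and 19.2 FPKM with siRNA-2, against 18.0 and 17.8 FPKM in the controls. TEAD3 was the least abundant TEAD gene, at 1.78 and 2.42 FPKM with siRNA-1 and siRNA-2, against 2.83 and 3.68 FPKM in the controls. TEAD1 made up 56.8% and 41.2% of the summed TEAD level with siRNA-1 and siRNA-2, against 37.9% and 35.2% in the controls. The sum itself was 72.6 and 88.1 FPKM in the knockdown libraries, against 75.7 and 74.4 FPKM in the controls, so a larger TEAD1 share with siRNA-1 went with less TEAD2 and TEAD4. By mean control level the TEAD genes fell in the order TEAD1, TEAD4, TEAD2 and TEAD3. TEAD1 and TEAD4 were close there, at 27.4 ± 1.76 and 26.5 ± 0.39 FPKM (SD, n = 2 each). They differed by less than the SD of TEAD1 but by more than that of TEAD4.

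CYR61 and CTGF encode secreted CCN matricellular proteins, which bind integrins and growth factors. CYR61 was at 147 FPKM with siRNA-1 and 52.2 FPKM with siRNA-2, against 21.1 and 18.9 FPKM in the controls. That is 7.35 and 2.61 times the control mean, so both siRNAs were above the controls and siRNA-1 much further. The log2 change was 2.08 ± 0.47 (limma adjusted p = 0.183), and the authors' deposited table gives 2.33 ± 0.42 with an adjusted p of 3.34e-06. CTGF was at 16.5 FPKM with siRNA-1 and 20.5 FPKM with siRNA-2, against 6.77 and 5.99 FPKM in the controls. It was the member on which the siRNAs were closest relative to the size of the change, at 2.58 and 3.21 times the control mean, and the one with the smallest limma p. Its log2 change was 1.39 ± 0.20 (limma adjusted p = 0.0983), and the authors' deposited table gives 1.498 ± 0.29 with an adjusted p of 3.37e-05. Its promoter window is the one with 3 GGAATG matches, whose part in this change was not tested. Of the other CCN genes, WISP2 (CCN5) was at 12.8 FPKM with siRNA-1 and 2.12 FPKM with siRNA-2, against 0.941 and 0.498 FPKM in the controls, and was called higher in the authors' deposited table (log2 change 3.22, adjusted p = 0.00085). NOV (CCN3) averaged under 1 FPKM with overlapping groups and was not tested, and WISP1 and WISP3 were listed at 0 in every library.

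ANKRD1 encodes a muscle-type ankyrin repeat protein and is a widely used reporter of YAP1 and TEAD activity. It was the least abundant target in the controls, at 16.5 FPKM with siRNA-1 and 5.59 FPKM with siRNA-2, against 1.47 and 1.36 FPKM in the controls. These are 11.7 and 3.95 times the control mean, the highest ratio of the members with either siRNA. The log2(FPKM + 1) scale understates a change from so low a level. On it the change was 2.15 ± 0.46 (limma adjusted p = 0.176), while the authors' deposited table gives 2.98 ± 0.55 with an adjusted p of 6.91e-06 on a mean of 120 normalized counts, the lowest of the members. AJUBA, a LIM-domain protein that binds LATS kinases at cell junctions and restrains them, was at 52.3 FPKM with siRNA-1 and 33.2 FPKM with siRNA-2, against 13.1 and 13.4 FPKM in the controls. The controls were nearly equal, and the siRNA libraries were at 3.95 and 2.51 times their mean. The log2 change was 1.58 ± 0.25 (limma adjusted p = 0.105), and the authors' deposited table gives 1.64 ± 0.29 with an adjusted p of 3.8e-06. Among all 14068 tested genes ordered by log2 change from the highest, ANKRD1 stood at place 36, CYR61 at 41, AJUBA at 118 and CTGF at 179.

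AMOTL2, an angiomotin-like junction protein that binds and retains YAP1, was at 40.8 FPKM with siRNA-1 and 34.9 FPKM with siRNA-2, against 25.6 and 30.5 FPKM in the controls. The groups were apart, but the gap between the nearest libraries was no larger than the gap between the controls, and the log2 change of 0.42 ± 0.18 did not pass (limma adjusted p = 0.448; adjusted p = 0.557 in the authors' deposited table). LATS2 was at 2.53 FPKM with siRNA-1 and 5.03 FPKM with siRNA-2, against 6.79 and 5.35 FPKM in the controls. The siRNA-2 library was just under the lower control, and the log2 change of -0.61 ± 0.31 did not pass (limma adjusted p = 0.524; -0.71 ± 0.36 with an adjusted p of 0.443 in the authors' deposited table). AMOTL2 and LATS2, both textbook targets of YAP1 and TEAD, thus did not share the size of change seen for CYR61, CTGF and ANKRD1, and LATS2 lay on the other side of the controls. Whether these members differ from the other targets was not tested.

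**Figure D2:**
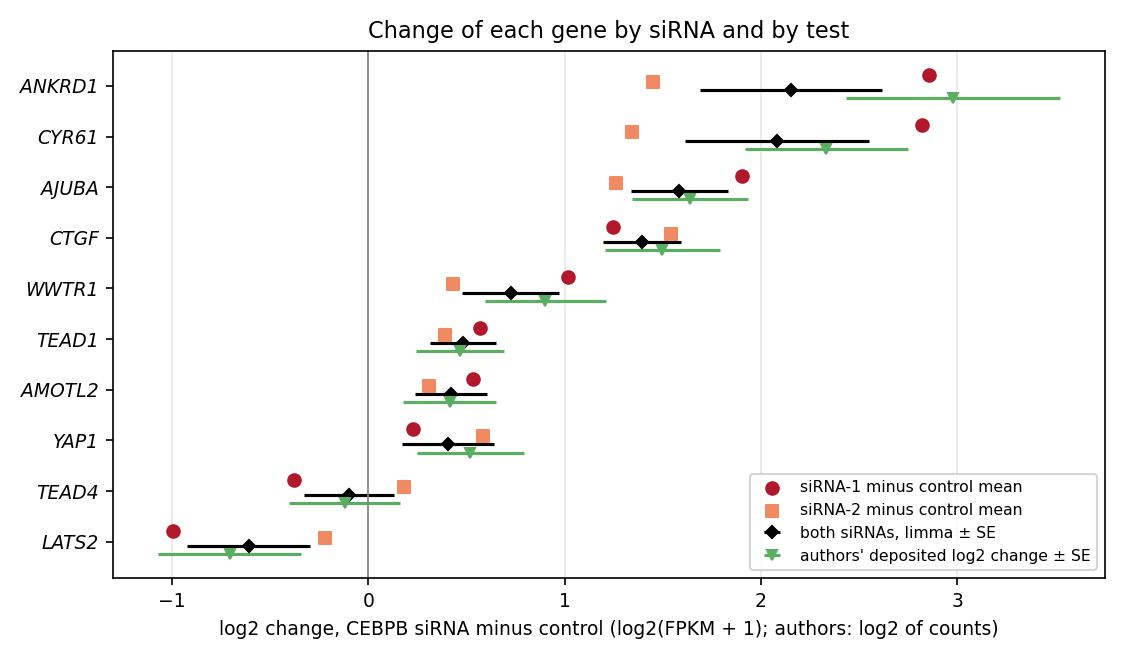
Log2 change of each of the 10 genes for siRNA-1 (red circle) and siRNA-2 (orange square) against the control mean, with the limma estimate over both siRNAs (black, ± SE) and the authors' deposited estimate (green, ± SE). ANKRD1 and CYR61 show the widest gap between the siRNAs, CTGF a narrow one with siRNA-2 higher, and TEAD4 lies on either side of 0.

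With siRNA-1 the median log2 change of the members was 0.80 and with siRNA-2 it was 0.51, against controls that these values share. The siRNA-1 library was above the siRNA-2 library for 6 of the 10 members, where 43.7% of tested genes were. In a limma fit with 3 groups, whose spread comes from the controls alone, 0 of 10 members differed between the siRNAs at an adjusted p below 0.05, where 0.441% of tested genes did, and 6 had an unadjusted p below 0.05, where 22.4% did. The difference of siRNA-1 minus siRNA-2 on the log2 scale was 1.48 ± 0.16 for CYR61 (limma adjusted p = 0.0542) and 1.41 ± 0.24 for ANKRD1 (limma adjusted p = 0.073). For AJUBA it was 0.64 ± 0.16 (limma adjusted p = 0.122). For CTGF, which was not among the 6, it ran the other way, at -0.30 ± 0.20 (limma adjusted p = 0.442). The rest of the 6 were WWTR1, higher with siRNA-1 (0.59 ± 0.20), and TEAD4 and LATS2. Those last were higher with siRNA-2, at -0.56 ± 0.16 for TEAD4 and -0.77 ± 0.27 for LATS2. The calls for CYR61, ANKRD1 and AJUBA depended on the filter, since all 3 passed among genes averaging at least 5 FPKM, with adjusted p-values of 0.000492, 0.0153 and 0.0439, in a fit where 13.6% of 9511 genes passed. CEBPB itself was at nearly the same level with both siRNAs, at a log2 difference of 0.22 ± 0.16 (limma adjusted p = 0.468).

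Of 15 genes of the Hippo kinase cascade, all tested, 0 passed in limma, where 0.235% of all tested genes did. An unadjusted p below 0.05 was found for 4, where 12.2% of tested genes had one. In the authors' deposited table, 3 were higher and 0 lower, where 2.71% and 1.42% of all genes were. Those 3, all of them upstream of the kinases, were NF2, WWC1 and FRMD6. NF2, the junctional tumour suppressor merlin, was at 32.9 and 20.6 FPKM with siRNA-1 and siRNA-2, against 9.39 and 8.16 FPKM in the controls, with a log2 change of 1.47 ± 0.26 (limma adjusted p = 0.125). WWC1, the scaffold KIBRA, was at 97.2 and 85.5 FPKM with siRNA-1 and siRNA-2, against 43.4 and 44.8 FPKM in the controls, with a log2 change of 1.03 ± 0.16 (limma adjusted p = 0.103). FRMD6, a FERM-domain partner of these proteins, was at 11.8 and 6.36 FPKM with siRNA-1 and siRNA-2, against 2.96 and 2.19 FPKM in the controls. The kinase LATS1 was at 5.46 and 6.50 FPKM with siRNA-1 and siRNA-2, against 9.07 and 8.23 FPKM in the controls, so that, like LATS2, it had both knockdown libraries below both controls without passing (limma adjusted p = 0.428). The core kinases STK3 and STK4 and the adaptors SAV1, MOB1A and MOB1B had log2 changes between -0.09 and 0.36 and did not pass. Over this list the knockdown libraries were both above both controls for 7 genes and both below for 3, where 23.5% and 21% of tested genes were. The list's median log2 change was 0.12.

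Among 9 junction and LIM scaffold genes, 8 were tested and 0 passed in limma, where 0.235% of all tested genes did. An unadjusted p below 0.05 was found for 3, where 12.2% of tested genes had one. In the authors' deposited table, 2 were higher, AJUBA and LPP, and 0 lower, beside the same 2.71% and 1.42% of all genes. LPP, a zyxin-family protein of focal adhesions, was at 15.5 and 14.1 FPKM with siRNA-1 and siRNA-2, against 5.02 and 6.14 FPKM in the controls, with a log2 change of 1.27 ± 0.19 (limma adjusted p = 0.103). WTIP, a close relative of AJUBA, was at 3.12 and 3.52 FPKM with siRNA-1 and siRNA-2, against 1.97 and 1.92 FPKM in the controls (limma adjusted p = 0.393). The third relative, LIMD1, had a log2 change of 0.00 with overlapping groups. The list's median was 0.35. Of 10 genes for the coactivators, TEAD factors and vestigial-like proteins, 8 were tested. In either direction 0 passed, by limma or by the authors' deposited table. An unadjusted limma p below 0.05 was found for 4, 2 in each direction, where 12.2% of tested genes had one. The median log2 change of this list was -0.24. The knockdown libraries were both above both controls for 2 of the 8 tested genes and both below for 3, where 23.5% and 21% of tested genes were. Those below included VGLL3 and VGLL4, vestigial-like proteins that bind TEADs in place of YAP1. VGLL3 was at 3.11 and 2.88 FPKM with siRNA-1 and siRNA-2, against 5.96 and 5.04 FPKM in the controls (log2 change -0.70 ± 0.21, limma adjusted p = 0.277, and adjusted p = 0.0695 in the authors' deposited table). VGLL4, which represses TEAD targets, was at 12.1 and 8.84 FPKM with siRNA-1 and siRNA-2, against 15.4 and 16.5 FPKM in the controls (log2 change -0.57 ± 0.21, limma adjusted p = 0.367).

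A literature list of 22 YAP1 and WWTR1 targets, which holds 5 of the members, had 21 tested genes. In limma 0 passed, where 0.235% of all tested genes did. An unadjusted p below 0.05 was found for 15, 14 of them higher, where 12.2% of tested genes had one in either direction. Called in the authors' deposited table were 9 as higher and 0 as lower, where 2.71% and 1.42% of all genes were. The knockdown libraries were both above both controls for 16 of the 21 genes and both below for 2, where 23.5% and 21% of tested genes were, and the median log2 change was 0.70. Without the members the median over 16 tested genes was 0.68, with 12 of them above both controls and 1 below. Besides CYR61, CTGF and ANKRD1, the authors' calls were AXL, CCDC80, NT5E, PTPN14, CRIM1 and NUAK2. CCDC80, an extracellular matrix protein, was at 21.9 and 18.0 FPKM with siRNA-1 and siRNA-2, against 4.35 and 6.45 FPKM in the controls, with a log2 change of 1.72 ± 0.24 (limma adjusted p = 0.0926). NT5E, the ectonucleotidase CD73, was at 54.3 and 27.1 FPKM with siRNA-1 and siRNA-2, against 11.1 and 12.2 FPKM in the controls, with a log2 change of 1.64 ± 0.33 (limma adjusted p = 0.16).

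AXL, a receptor tyrosine kinase, was at 354 FPKM with siRNA-1 and 62.8 FPKM with siRNA-2, against 14.9 and 14.97 FPKM in the controls. PTPN14, a phosphatase that binds YAP1 and restrains it, was at 27.2 and 9.05 FPKM with siRNA-1 and siRNA-2, against 4.98 and 3.63 FPKM in the controls. As for CYR61 and ANKRD1, the siRNA-1 library was the higher one for both genes. The list did not move one way throughout. IGFBP3, an insulin-like growth factor binding protein, was at 32.8 FPKM with siRNA-1 and 124 FPKM with siRNA-2, against 158 and 239 FPKM in the controls, and did not pass (limma adjusted p = 0.384; adjusted p = 0.66 in the authors' deposited table). F3, FOXF2 and GADD45B had overlapping groups.

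**Figure D3:**
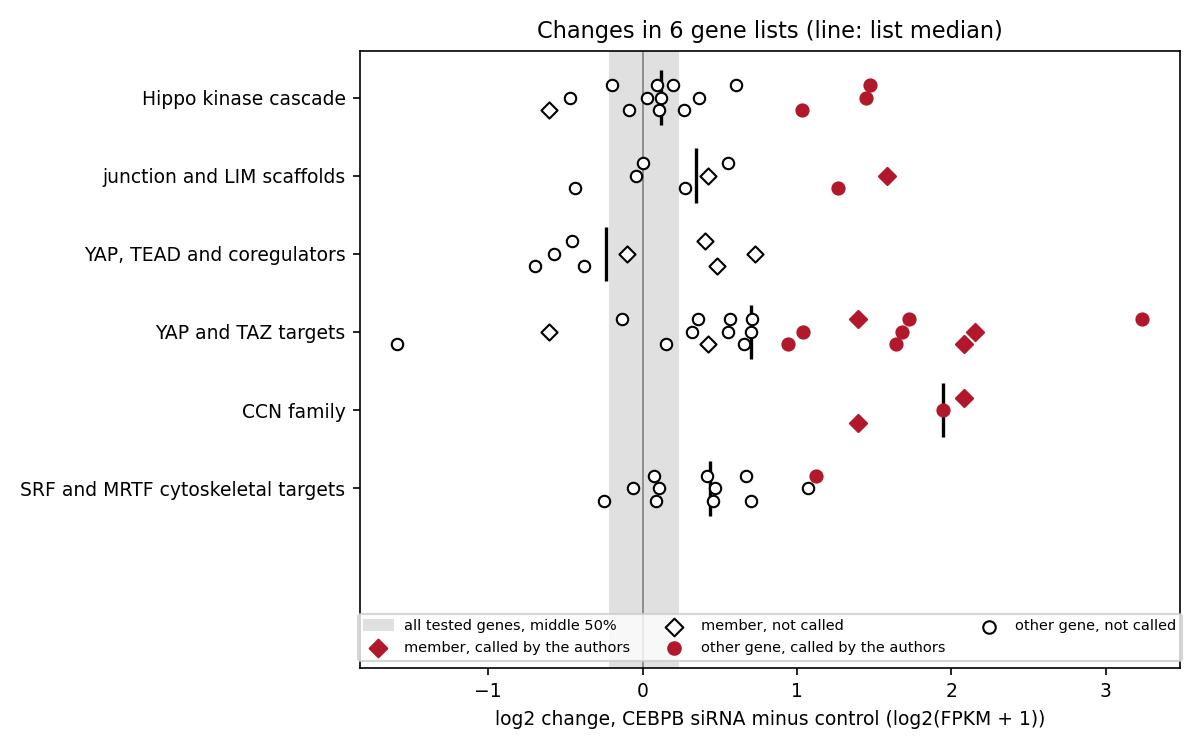
Log2 change after CEBPB knockdown of every tested gene in 6 lists, with members of the set as diamonds, other genes as circles, red fill for genes called in the authors' deposited table, a black line at each list's median and a grey band for the middle 50% of all tested genes. Most YAP and TAZ targets lie right of the grey band, with AXL furthest right and IGFBP3 furthest left, whereas the list of YAP, TEAD and coregulators lies on both sides with a median of -0.24.

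**Figure D4:**
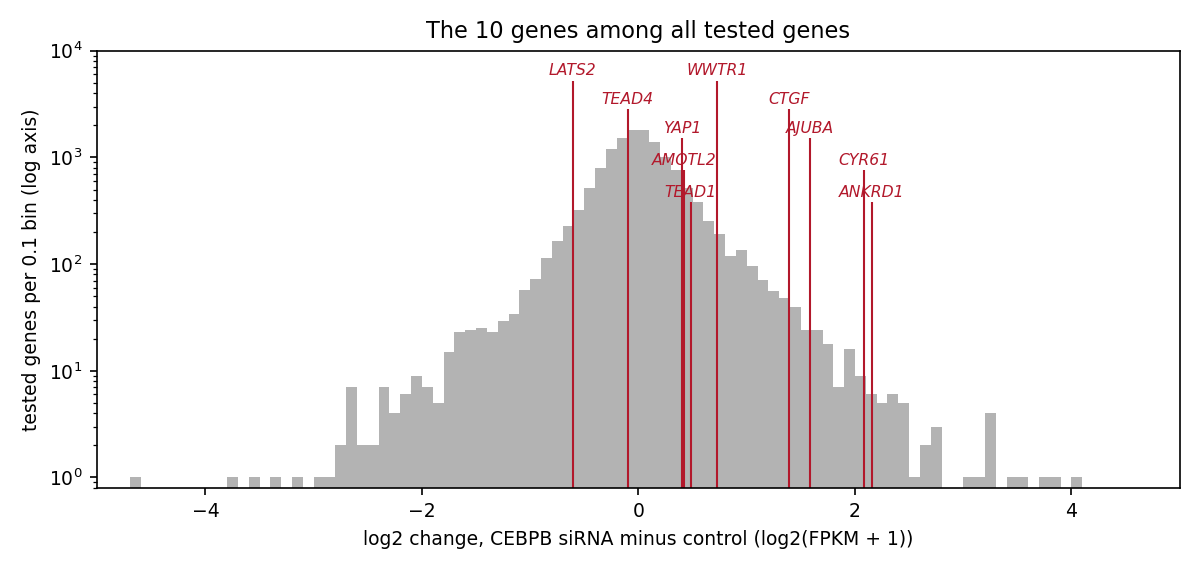
Histogram of the log2 change of all 14068 tested genes (grey, genes per bin on a log axis) with the 10 members marked in red. ANKRD1, CYR61, AJUBA and CTGF stand in the sparse right tail, at places 36, 41, 118 and 179, while TEAD4 stands in the bulk. TEAD1, AMOTL2 and YAP1 stand right of the centre, at places 1619, 1923 and 1997.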

How the data were processed

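Total RNA of A549 cells was read as 76-base single-end reads from strand-specific libraries, 2 from CEBPB siRNA and 2 from control siRNA. Per the submitters' processing notes the tools were STAR 2.7.0d, StringTie 2.1.4, HTSeq 0.13.5 and DESeq2 1.26.0 with build hg19, in no stated role. The deposited table's unit is not named in its header; the values were taken as FPKM from the StringTie-style header and because column sums differ between libraries, and the depth behind each FPKM is unknown. A signal column holds the mean count over libraries, divided by size factors by the authors, and the authors' log2 change (knockdown over control) stands beside its error. The authors' Wald score was not used, and the p-value columns are the authors' own.

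From the deposited FPKM, limma 3.58.1 (R 4.3.3) was fitted with an intensity trend to log2(FPKM + 1) over the 14068 genes averaging at least 1 FPKM, without a block, with Benjamini-Hochberg adjustment over those genes and a threshold of 0.05. All 10 members passed that filter. The fit had 2 residual degrees of freedom, and the fit of siRNA-1 against siRNA-2 had 1 and takes its spread from the controls only. The limma step was tested on simulated data. Gene names were those of the table. Whether counting used strand is not given in the sources used here. In GENCODE 29, exons of YAP1, WWTR1 and CTGF overlap opposite-strand genes by 628, 627 and 195 bases, and those of AJUBA and AMOTL2 overlap same-strand genes by 50 and 187 bases.

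Members and lists were chosen with earlier results of these data known. Named genes were the members, CEBPB and, per list, the other genes with the smallest limma p, up to 2 as none was called. All other genes named were chosen after their values were seen. Alternatives tried were the pseudocount, the filter, scaling, a replicate block, a 3-group fit, the authors' test and leaving out each library.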

Additional observations from a re-analysis of the deposited data

Results flagged for a closer look

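AXL, a YAP1 and WWTR1 target in the wider list, passed the threshold for a difference between the siRNAs. It was at 354 FPKM with siRNA-1 and 62.8 FPKM with siRNA-2, a log2 difference of 2.48 ± 0.15 (limma 3-group fit, adjusted p = 0.0404). The call was lost with log2(FPKM + 0.1), at an adjusted p of 0.0573, and held under the other 4 alternatives, at adjusted p-values of 1.3e-05 to 0.0359. Each siRNA has 1 library, and the spread comes from the 2 controls alone, so the test compares these libraries and shows no replicated difference between the siRNAs. Both libraries were above both controls.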

How the results depend on the processing

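The count of members called higher, 0 in limma, was 4 in the 3-group fit, where 3.82% of tested genes were called higher, and 4 in the authors' deposited table. In both fits they were CYR61, CTGF, ANKRD1 and AJUBA. It lay between 0 and 5 when 1 library was left out. The 5 came without siRNA-2, where 6.18% of tested genes passed upward, and added WWTR1 (adjusted p = 0.0294). No member was called lower under any of these settings. For the list counts that follow, the shares of all tested genes in limma were 0.064% higher and 0.171% lower. In the authors' deposited table they were 2.71% and 1.42%. In the 3-group fit 3.82% were higher, and 433 of 14068 genes were lower. Besides members, the lists held tested genes numbering 14 (kinase cascade), 6 (scaffolds), 4 (coregulators), 16 (targets), 1 (CCN) and 12 (SRF). Other genes of the wider lists called higher numbered 0 in limma, 15 in the 3-group fit, 12 in the authors' deposited table and 0 to 15 with 1 library left out. Those called lower numbered 0, then 1 in the 3-group fit and 0 to 2 with 1 library left out. Members differing between the siRNAs numbered 0, then 3 among genes averaging at least 5 FPKM, where 13.6% of genes passed, 2 with median-of-ratios scaling (CYR61 and ANKRD1), where 2.59% did, and 1 with upper-quartile scaling (CYR61), where 1.17% did, against 0.441% in the fit as reported. The direction of change was kept for 9 members under all alternatives that gave a value (LATS2 averaged under 5 FPKM), and TEAD4 ranged from -0.38 to 0.18 with 1 library left out. Over all genes, limma called 9 higher and 24 lower, 0 without a filter, 0 without either control, and 870 and 894 without siRNA-2. With the replicate block 0 members were called, and 11 genes higher and 14 lower in all. Same-numbered libraries deviated together with a correlation of only 0.0754. In the knockdown group that deviation also holds the difference between the siRNAs, so it cannot decide whether same-numbered libraries share a batch. The cause of these shifts was not tested. With 2 libraries per group, limits on small changes such as those of YAP1, TEAD1 and AMOTL2 are wide.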

Other observations

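The transcription factor SRF and its actin-regulated coactivators MKL1 and MKL2 share some targets with YAP1 and TEAD, CYR61, CTGF and ANKRD1 among them. Of 15 listed genes, SRF and these coactivators included, 12 were tested, 0 passed in limma and 3 had an unadjusted p below 0.05, where 12.2% of tested genes did. In the authors' deposited table, 1 was higher and 0 lower, where 2.71% and 1.42% of all genes were. That gene, TPM1 (tropomyosin 1), was at 954 and 704 FPKM with siRNA-1 and siRNA-2, against 381 and 371 FPKM in the controls, a log2 change of 1.12 ± 0.20 (limma adjusted p = 0.123). ACTA2, smooth muscle actin, was at 9.54 and 9.48 FPKM with siRNA-1 and siRNA-2, against 4.71 and 3.36 FPKM in the controls (log2 change 1.07 ± 0.22, limma adjusted p = 0.16), and its level is uncertain because actin genes are near-identical. SRF itself had a log2 change of 0.09 with overlapping groups. The list's median log2 change was 0.44, beside 0.00 over all tested genes.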
